A study of Mus musculus with 6 samples.

Results

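The genes described are 10 chemokine ligands of the mouse count table: Ccl2, Ccl5, Ccl7, Ccl8, Ccl9, Cxcl1, Cxcl5, Cxcl10, Cxcl12 and Cx3cl1. They were taken by symbol from 55414 gene identifiers, and all 10 were found. The members were chosen by their levels and by how they differed between siUsf2 and siControl in these same libraries, so the levels, folds and adjusted p-values of the 10 describe where each gene fell in the fit over all genes and are not independent evidence. RNA was sequenced from C2C12 cells, a wild-type mouse myoblast line grown in medium with 10% fetal bovine serum and transfected by lipofection. The 3 siControl libraries received a negative-control siRNA, and the 3 libraries labelled siUsf2 an siRNA against Usf2, which encodes a basic helix-loop-helix leucine zipper factor that binds E-box DNA. The design sets USF2 knockdown against the control transfection. The labels give no time after transfection and do not say whether replicates were separate cultures, so p-values reflect only how far these samples spread, which may be technical.

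Chemokines are small secreted proteins that direct cell migration through G protein-coupled receptors, and they are classed by the spacing of their amino-terminal cysteines as CC, CXC or CX3C. Myoblasts secrete several of them, and in injured muscle they recruit neutrophils and monocytes. Many are induced through NF-kB, and CXCL9 and CXCL10 also through interferons.

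Usf2 stood at 26.2, 31.2 and 23.0 CPM (counts per 1000000 counts of the library) in siControl 1 to 3, against 17.1, 15.3 and 30.8 CPM in the libraries labelled siUsf2 1 to 3. The siUsf2 3 value lay inside the siControl range, against its label. That library also had 3414565 counts, against 14790997 to 17715250 in the other 5, and 0.974% of its counts fell on pseudogenes, against 14.0% to 15.3%. It is therefore called the library labelled siUsf2 3 and shown apart. Folds are given first from the 5 other libraries and then with all 6, and both fits covered the whole table. Markers of macrophages, T cells and endothelial cells were low or absent, apart from Cd14 at 18.5 to 23.4 CPM. Of the fibroblast markers, Pdgfra, Col1a1 and Dcn were detected, while Lum had at most 15 counts and Thy1 at most 7 in any library. The macrophage genes Adgre1 and Itgam had 0 counts in all 6 libraries, as had 3 of 5 T cell markers. The 7 macrophage markers summed to between 20.9 and 26.2 CPM in siControl, against 21.2 and 23.8 CPM for siUsf2 2 and 1, and 23.4 CPM in the library labelled siUsf2 3, most of it Cd14. The 5 endothelial markers summed to at most 4.69 CPM in any library, with Tie1 at 0. The 5 fibroblast markers summed to between 414 and 432 CPM in siControl and to 497, 492 and 1054 CPM in the libraries labelled siUsf2 1 to 3, and this rise in the sum lay in Col1a1 (log2 fold change 0.34, edgeR adjusted p = 0.0106 in the 5 libraries). The other 4 fibroblast markers summed to between 166 and 188 CPM in siControl, to 186.5 and 166.5 CPM for siUsf2 1 and 2, and to 149 CPM in the library labelled siUsf2 3. Of 5 myoblast markers, Myf5 rose and Myod1, Des and Cdh15 fell, and the calls of Myf5, Myod1 and Des held in 1 of 5 removals of a library. Over all genes tested in the 5 libraries 4.97% were called higher and 6.4% lower. The 5 summed to between 1841 and 2311 CPM in siControl, to 1599 and 1678 CPM for siUsf2 1 and 2 and to 2168 CPM in the library labelled siUsf2 3. In that library Myod1 (265 CPM) and Des (1584 CPM) lay within siControl, Cdh15 (234 CPM) below it and Myf5 (33.09 CPM) above it. Myotube markers did move with the groups: Myog, Myh3, Acta1, Ckm and Mymk all fell, and their sum was between 3572 and 3803 CPM in siControl against 784, 872 and 1541 CPM in the libraries labelled siUsf2 1 to 3. The part of these shifts in the chemokine values was not tested.

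Promoter windows, 250 bases before to 50 bases after the gene start, were found in the RefSeq table (GRCm38.p6) for 6 of the 10 genes: Ccl8, Ccl9, Cxcl1, Cxcl10, Cxcl12 and Cx3cl1. Windows of 4 genes are printed, because these are the called genes that have a window (Cxcl10, Ccl8 and Ccl9), with Cxcl1 as an abundant gene that was not called. They lie at chr5:92348840-92349139 (Cxcl10, minus strand), chr11:82114935-82115234 (Ccl8, plus strand), chr11:83578587-83578886 (Ccl9, minus strand) and chr5:90890995-90891294 (Cxcl1, plus strand). Each reads 5′ to 3′ on the strand of its gene, and capitals mark matches on either strand to the NF-kB consensus or to the core of the interferon-stimulated response element, which is GAAA, 2 bases of any kind and GAAA.
Cxcl10: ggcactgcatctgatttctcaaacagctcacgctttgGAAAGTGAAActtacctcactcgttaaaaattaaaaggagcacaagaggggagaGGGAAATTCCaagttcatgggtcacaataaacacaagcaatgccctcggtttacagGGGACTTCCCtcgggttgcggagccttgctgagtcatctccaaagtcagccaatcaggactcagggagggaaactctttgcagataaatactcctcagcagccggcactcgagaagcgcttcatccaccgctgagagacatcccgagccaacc
Ccl8: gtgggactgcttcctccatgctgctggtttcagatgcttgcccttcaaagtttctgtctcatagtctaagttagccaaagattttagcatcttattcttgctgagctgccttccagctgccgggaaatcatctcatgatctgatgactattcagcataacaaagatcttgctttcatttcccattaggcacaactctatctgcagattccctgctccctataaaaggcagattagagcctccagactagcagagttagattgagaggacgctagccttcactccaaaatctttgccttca
Ccl9: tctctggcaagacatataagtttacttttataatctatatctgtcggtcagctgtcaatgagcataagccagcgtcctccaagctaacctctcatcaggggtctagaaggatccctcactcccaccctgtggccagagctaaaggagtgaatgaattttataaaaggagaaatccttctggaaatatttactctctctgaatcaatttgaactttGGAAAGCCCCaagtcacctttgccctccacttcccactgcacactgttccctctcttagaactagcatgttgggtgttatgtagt
Cxcl1: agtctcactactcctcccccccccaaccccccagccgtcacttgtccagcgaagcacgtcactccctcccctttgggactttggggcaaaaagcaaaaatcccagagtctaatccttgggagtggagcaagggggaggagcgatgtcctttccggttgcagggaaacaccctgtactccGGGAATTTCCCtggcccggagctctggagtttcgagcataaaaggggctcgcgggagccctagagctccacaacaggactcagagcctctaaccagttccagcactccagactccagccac

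In Cxcl10 the match to the interferon element, GAAAGTGAAA, began at position -213 from the gene start, and NF-kB matches began at -159 and -103. Cxcl1 held overlapping NF-kB matches on both strands from -71, and Ccl9 held 1 on its opposite strand from -35. Ccl8 held neither motif, but had a TATAAA match from -32. TATAAA was in 3 of the 6 windows and in 13.6% of all. Over all 32851 windows of the table, 4.51% held the NF-kB consensus and 3.44% held the interferon element core, against 3 and 1 of the 6 chemokine windows. The palindromic E-box CACGTG was in 0 of the 6 windows and in 7.15% of all windows. The looser E-box CANNTG, which includes CACGTG, was in 5 of the 6 and in 72.3% of all. A match is a description of letters, and no match says only that the letters are not in these windows.

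Scaled to gene length, Cxcl5 was the highest of the 10 in every library. In siControl it stood at 766 ± 65.6 CPM per kilobase of exon (SD, n = 3), followed by Cxcl1 at 69.99 ± 3.75, Ccl7 at 52.7 ± 3.87 and Cxcl12 at 45.1 ± 1.58. Cxcl1 and Cxcl5 encode ligands of the neutrophil receptor CXCR2. Below them came Ccl2 at 32.9 ± 2.25 and Cx3cl1 at 31.3 ± 1.74 CPM per kilobase, whose siControl libraries overlapped. Ccl8 stood at 8.08 ± 1.26, Cxcl10 at 2.87 ± 0.937, Ccl5 at 2.79 ± 0.288 and Ccl9 at 1.33 ± 0.160 CPM per kilobase, and those of Cxcl10 and Ccl5 overlapped. The upper 6 kept their order in siUsf2 1 and 2, while among the lower 4 it became Ccl5 at 8.15 ± 0.578, Ccl8 at 3.51 ± 0.412, Ccl9 at 3.44 ± 0.0191 and Cxcl10 at 0.631 ± 0.219 (SD, n = 2). Ccl8 and Ccl9 overlapped there, with Ccl9 the higher in siUsf2 1 and Ccl8 the higher in siUsf2 2. The library labelled siUsf2 3 had another order, with Cx3cl1 at 27.87 above Ccl2 at 26.51 CPM per kilobase. Its lower 4 were Ccl8 at 12.04, Ccl5 at 7.627, Ccl9 at 3.559 and Cxcl10 at 0.3901 CPM per kilobase. The length merges all annotated exons, so a gene with long alternative ends, such as Cxcl12 at 8.18 kb, receives a lower scaled level.

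**Figure D1:**
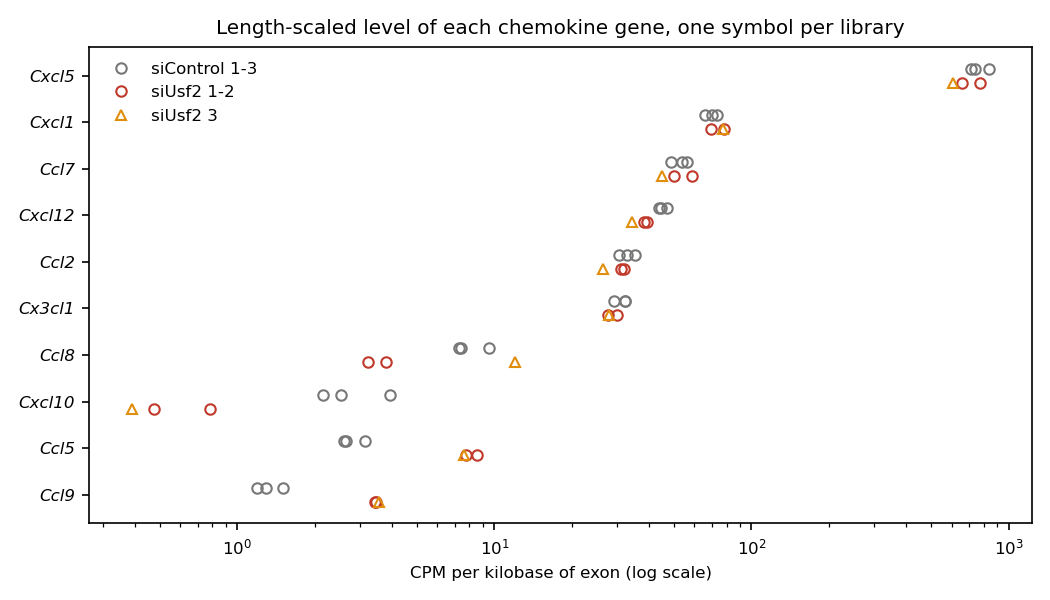
Length-scaled level of the 10 chemokine genes in CPM per kilobase of exon (log axis), with 1 symbol per library: grey circles siControl 1 to 3, red circles siUsf2 1 and 2, orange triangles the library labelled siUsf2 3. Cxcl5 stands alone at the top, near 766 CPM per kilobase in siControl. In siUsf2 1 and 2 the order changes among the lowest 4 genes. In the library labelled siUsf2 3, Ccl8 is the highest of those 4, and Cx3cl1 stands above Ccl2.

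Unscaled, the 10 genes together took 2050, 2116 and 2275 CPM in siControl 1 to 3, 2123 and 1888 CPM for siUsf2 1 and 2 and 1757 CPM for the library labelled siUsf2 3. Cxcl5 made up 65.2%, 65.2% and 68.8% of these counts in siControl and 67.9% and 65.2% in siUsf2 1 and 2. In the library labelled siUsf2 3 it was 64.3% (Wilson 95% interval 63.1% to 65.5%, counting error only). Cxcl5 was thus the main contributor to the ligand counts of each library.

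In the 5 libraries without the one labelled siUsf2 3, 2 of the 10 genes rose (Ccl5 and Ccl9), 2 fell (Cxcl10 and Ccl8) and 6 were not called. Of all 17217 genes tested, 11.4% were called, 4.97% higher and 6.4% lower, and nothing is read from the comparison because the members were chosen on these folds. Over all genes the split was 855 higher and 1102 lower, and 1124 higher and 900 lower with upper-quartile scaling, while the 2 and 2 of the 10 did not change. In bulk RNA, fewer expressing cells and less RNA per cell cannot be told apart, for these and all later values. All 10 passed the filter on low counts. The median log2 fold change was -0.09, against -0.01 over all genes tested. The 4 called genes were the 4 with the lowest length-scaled levels in siControl. Both levels and folds entered the choice of the 10, so nothing is read from this relation. With all 6 libraries none of the 10 was called by edgeR, where 0.042% of 16662 genes were, and 4 of the 10 had an unadjusted p below 0.05, as had 10.5% of all genes. By DESeq2 2 rose and 1 fell over all 6 libraries, where 4.27% of all genes were called (1.79% higher and 2.48% lower). By limma-voom 2 rose, where 0.624% of all genes were called (0.114% higher and 0.51% lower).

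**Figure D2:**
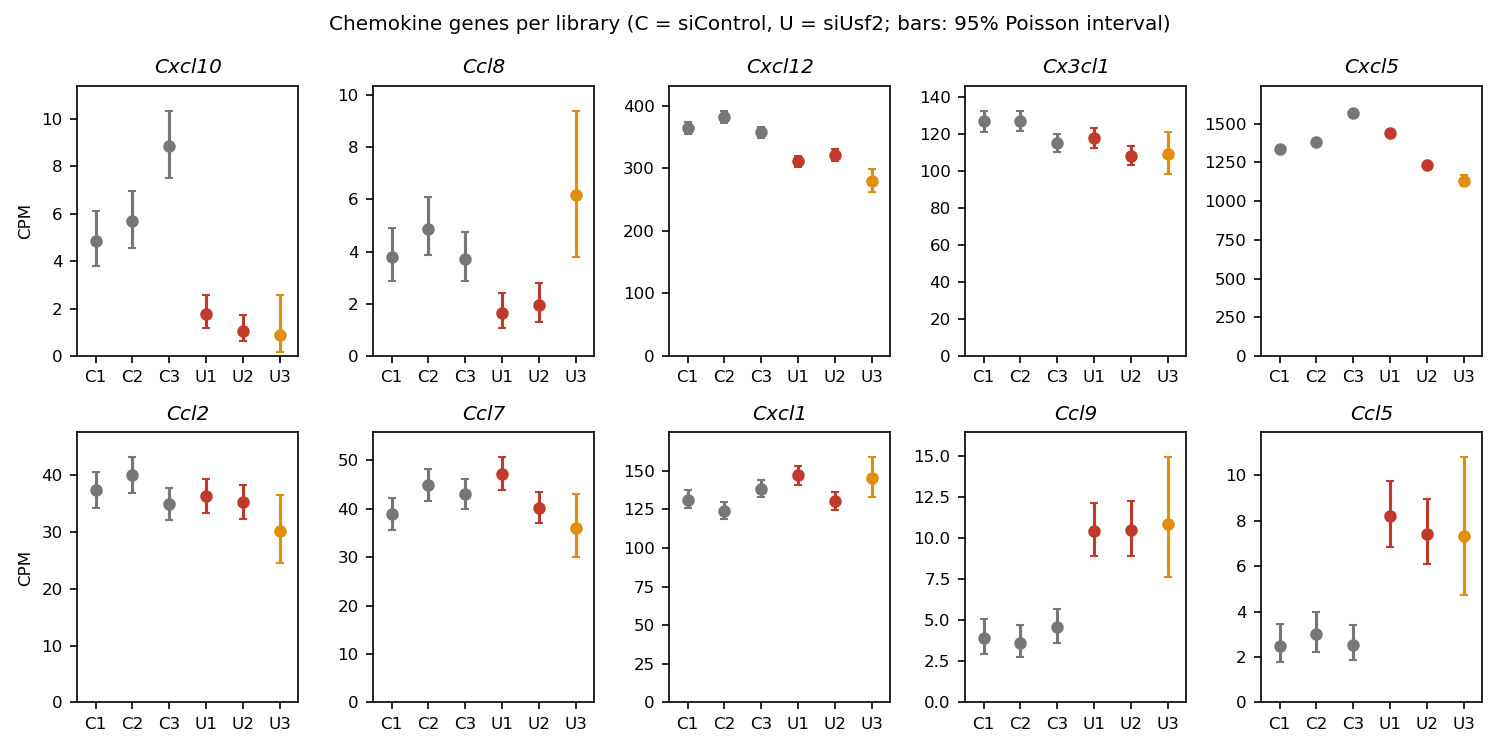
Level of each chemokine gene in CPM (vertical axes from 0) in siControl 1 to 3 (C1 to C3, grey), siUsf2 1 and 2 (U1 and U2, red) and the library labelled siUsf2 3 (U3, orange), with exact 95% Poisson intervals. Ccl5 and Ccl9 lie above siControl in U1 and U2 and also in U3, Cxcl10 lies below siControl in U1, U2 and U3, and Ccl8 is low in U1 and U2 but 6.15 CPM in U3, whose Usf2 level goes against its label.

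Ccl5, known as RANTES, attracts T cells and monocytes. Its gene spans 83525778 to 83530518 of chromosome 11 (GRCm38, minus strand; ENSMUSG00000035042). Its counts were 37, 48 and 45 in siControl 1 to 3, against 130 and 111 for siUsf2 1 and 2 and 25 for the library labelled siUsf2 3. These were 2.50, 3.00 and 2.54 CPM in siControl, then 8.22 and 7.43 CPM, and 7.32 CPM (95% Poisson interval 4.74 to 10.8) in the library labelled siUsf2 3. siUsf2 1 and 2 lay above every siControl library. So did the library labelled siUsf2 3, whose interval did not reach the siControl values. In the 5 libraries the log2 fold change was 1.53 (edgeR adjusted p = 4.7e-05, SE 0.24). The mean level went from 2.68 ± 0.277 CPM (SD, n = 3) to 7.83 ± 0.556 CPM (SD, n = 2). With all 6 libraries the log2 fold change was 1.49 (95% interval 0.99 to 1.98, edgeR adjusted p = 0.0743).

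Ccl9, also called MIP-1 gamma, is a rodent CC chemokine that acts through CCR1. It lies 47.1 kb from Ccl5, at 83572919 to 83578636 of chromosome 11 (minus strand; ENSMUSG00000019122). It had 58, 58 and 81 counts in siControl 1 to 3, against 165 and 157 for siUsf2 1 and 2 and 37 for the library labelled siUsf2 3. The levels were 3.92, 3.62 and 4.57 CPM in siControl, 10.4 and 10.5 CPM in siUsf2 1 and 2, and 10.8 CPM (95% Poisson interval 7.63 to 14.9) in the library labelled siUsf2 3. siUsf2 1 and 2 sat close together above every siControl library, and the library labelled siUsf2 3 lay near them. The log2 fold change was 1.36 in the 5 libraries (edgeR adjusted p = 3.91e-05, SE 0.21) and 1.36 in all 6 (95% interval 0.90 to 1.81, edgeR adjusted p = 0.0746). The 5-library calls of Ccl5 and Ccl9 held under all 13 other settings tried.

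Cxcl10, or IP-10, is an interferon-inducible ligand of CXCR3, a receptor of activated T cells. It lies on chromosome 5 at 92346638 to 92348889 (minus strand; ENSMUSG00000034855). It had 72, 91 and 157 counts in siControl 1 to 3, against 28 and 16 for siUsf2 1 and 2 and 3 for the library labelled siUsf2 3. In CPM it was 4.87, 5.69 and 8.86 in siControl, 1.77 and 1.07 for siUsf2 1 and 2 and 0.879 for the library labelled siUsf2 3. The siControl libraries spread widely, with siControl 3 the highest, yet all lay above siUsf2 1 and 2 and above the library labelled siUsf2 3. The log2 fold change was -2.20 in the 5 libraries (edgeR adjusted p = 2.43e-05, SE 0.33), called under all 13 other settings, and -2.32 in all 6 (95% interval -3.31 to -1.34, edgeR adjusted p = 0.133). From its 3 counts, the library labelled siUsf2 3 held 0.133 times the pooled siControl level, with an exact 95% counting interval of 0.0273 to 0.393. Cxcl10 overlaps Art3 on the opposite strand, and whether counting used strand is not given in the sources used here, so reads of the overlap cannot be told apart. Of 2305 distinct 31-base stretches in Cxcl10 transcripts, 103 (4.47%) also occur in Art3 transcripts, in either orientation. Art3 had 3.65, 3.19 and 3.78 CPM in siControl 1 to 3, and 4.05, 4.76 and 6.15 CPM in the libraries labelled siUsf2 1 to 3, and was not called (5-library log2 fold change 0.30, edgeR adjusted p = 0.525).

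Ccl8, or MCP-2, is a CC chemokine of the group named monocyte chemoattractant proteins. It lies on chromosome 11 at 82115185 to 82116799 (plus strand; ENSMUSG00000009185). Its counts were 56, 78 and 66 in siControl 1 to 3, against 26 and 29 for siUsf2 1 and 2 and 21 for the library labelled siUsf2 3. The corresponding levels were 3.79, 4.87 and 3.73 CPM, then 1.64 and 1.94 CPM, and 6.15 CPM (95% Poisson interval 3.81 to 9.40). The library labelled siUsf2 3 was thus the highest of the 6, opposite to siUsf2 1 and 2, which were the lowest. The 5-library log2 fold change was -1.21 (edgeR adjusted p = 0.0109, SE 0.32), and with all 6 it was -0.56 (95% interval -1.87 to 0.76, edgeR adjusted p = 0.797). The 5-library call ended without siControl 2 (edgeR adjusted p = 0.0705) and without siUsf2 1 (edgeR adjusted p = 0.122).

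**Figure D3:**
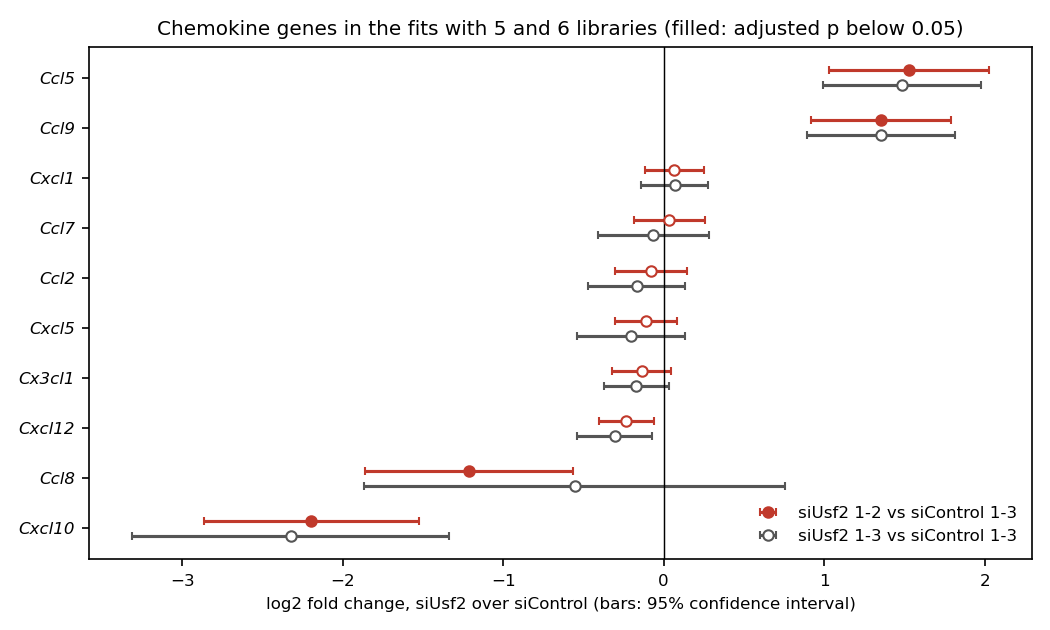
Log2 fold change of the 10 chemokine genes, siUsf2 over siControl, with 95% confidence intervals: red from the 5 libraries, grey from all 6, filled where the edgeR adjusted p was below 0.05. The 5-library values run from -2.20 for Cxcl10 to 1.53 for Ccl5, and 6 genes lie between -0.23 and 0.07.

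The 6 genes that were not called were the 6 with the highest length-scaled levels, and their 5-library intervals were narrow. Cxcl12, the ligand of CXCR4 that guides migrating muscle precursors, came closest to a call. It stood at 365, 383 and 358 CPM in siControl 1 to 3, 311 and 322 CPM for siUsf2 1 and 2 and 280.0 CPM for the library labelled siUsf2 3. siUsf2 1 and 2 lay below every siControl library, as did the library labelled siUsf2 3. The log2 fold change was -0.23 (SE 0.08, 95% interval -0.40 to -0.06, edgeR adjusted p = 0.0696) in the 5 libraries, which DESeq2 called (adjusted p = 0.0483). It also passed without siControl 3 (edgeR adjusted p = 0.0182), and with all 6 libraries the value was -0.31 (edgeR adjusted p = 0.333).

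Cx3cl1, or fractalkine, is a membrane-bound chemokine that is shed by ADAM proteases. It had 127, 127 and 115 CPM in siControl 1 to 3 and 118, 108 and 109.5 CPM in the libraries labelled siUsf2 1 to 3. These groups overlapped, and the 5-library log2 fold change was -0.14 (95% interval -0.32 to 0.05). Cxcl5 had 1336, 1380 and 1566 CPM in siControl, 1441 and 1231 CPM for siUsf2 1 and 2 and 1130 CPM for the library labelled siUsf2 3, for a log2 fold change of -0.11 (95% interval -0.30 to 0.08). siUsf2 1 lay inside the siControl range, and siUsf2 2 and the library labelled siUsf2 3 lay below it. Cxcl1 had 131, 124 and 138 CPM in siControl and 147, 130 and 146 CPM in the libraries labelled siUsf2 1 to 3, for a log2 fold change of 0.07 (95% interval -0.12 to 0.25). siUsf2 1 and the library labelled siUsf2 3 were the highest there, and siUsf2 2 lay within siControl.

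Ccl2, or MCP-1, and Ccl7, or MCP-3, attract monocytes through CCR2. Ccl2 stood at 37.3, 40.0 and 34.9 CPM in siControl 1 to 3, 36.3 and 35.2 CPM for siUsf2 1 and 2 and 30.2 CPM for the library labelled siUsf2 3. Its 5-library log2 fold change was -0.08 (95% interval -0.30 to 0.15). Ccl7 stood at 38.8, 44.9 and 43.0 CPM in siControl and 47.2, 40.2 and 36.0 CPM in the libraries labelled siUsf2 1 to 3, with a log2 fold change of 0.04 (95% interval -0.19 to 0.26). Both genes were lowest in the library labelled siUsf2 3, and siUsf2 1 and 2 overlapped with siControl or, for Ccl7 in siUsf2 1, lay above it. These intervals bound the 5-library differences of the 6 genes but do not show that they were unchanged.

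The libraries of the groups were also compared without a model. In 5 of the 10, siUsf2 1 and 2 did not overlap with siControl in CPM (2 higher and 3 lower), against 41.3% of all genes tested in the 5 libraries, 21.8% higher and 19.5% lower. With the library labelled siUsf2 3 added, 4 of the 10 still had separate groups (Ccl5 and Ccl9 higher, Cxcl10 and Cxcl12 lower), against 22.6% of all genes tested, 11.4% higher and 11.2% lower. That library lay outside the siControl range for all 10 genes, above it for 4 and below it for 6. It also lay outside that range for 81.7% of all 16662 genes tested, above it for 39.6% and below it for 42.1%. These CPM use the library total without further scaling. Pseudogenes took 0.974% of that library's counts, against 14.0% to 15.3% elsewhere, so its other genes share a larger part of the total. How many of the 10 would lie outside the range on a common scale was not tested.

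The chemokine genes lie in clusters, and the calls were not the same for all neighbours, whose differences from each other were not tested. Ccl2 (chromosome 11, 82035571 to 82037453), Ccl7 (82045712 to 82047525) and Ccl8 share a cluster with Ccl11, an eosinophil chemokine, in which Ccl8, 79.6 kb from Ccl2, was the gene called. Ccl11 had 41, 47 and 93 counts in siControl against 41, 26 and 3 for the libraries labelled siUsf2 1 to 3, with a 5-library log2 fold change of -0.77 (edgeR adjusted p = 0.15, SE 0.34). In the cluster of Ccl5 and Ccl9, both tested genes rose, and Ccl6, Ccl3 and Ccl4 had too few counts to test. On chromosome 5, Cxcl5 (90759360 to 90761624) and Cxcl1 (90891241 to 90893115) are 131.9 kb apart and were not called, nor was Ppbp between them (log2 fold change -0.01). Cxcl10 sits 25.3 kb from Cxcl9, another interferon-inducible CXCR3 ligand. Cxcl9 had 18, 16 and 21 counts in siControl, 3 and 4 for siUsf2 1 and 2 and 0 for the library labelled siUsf2 3, where 3 counts would be 0.879 CPM. Cxcl9 passed the filter through siControl alone, so only a fall could be called and nothing is read from its direction beside Cxcl10. Its 5-library log2 fold change was -2.29 (edgeR adjusted p = 0.028, SE 0.69), not called by limma-voom (adjusted p = 0.0518) or without siControl 1 (0.0742), siUsf2 1 (0.25) or siUsf2 2 (0.12, all edgeR adjusted p), and DESeq2 gave it no adjusted p. Cxcl12 (chromosome 6, 117168535 to 117181367) has no other listed ligand within 500 kb, and Cx3cl1 (chromosome 8, 94772009 to 94782427) lies between Ccl22, at 0 counts, and Ccl17, which was not called.

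**Figure D4:**
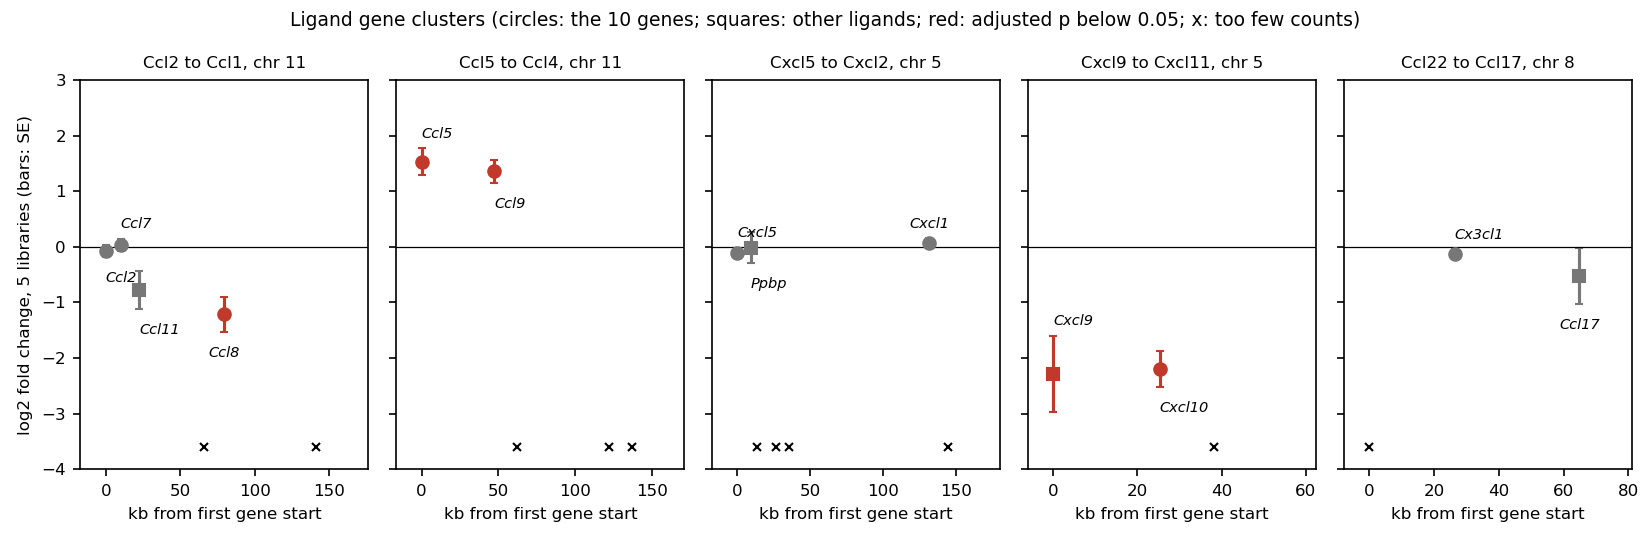
Log2 fold change in the 5 libraries (bars: SE) against distance in kb from the first gene of each ligand cluster. Circles are the 10 chemokine genes, squares other ligands, red marks an edgeR adjusted p below 0.05, and crosses at the bottom mark genes with too few counts. Ccl5 and Ccl9 lie near 1.53 and 1.36, Cxcl9 and Cxcl10 near -2.29 and -2.20, and Ccl2 and Ccl7 near 0 beside Ccl8. Cxcl9 passed the filter through siControl alone, so only a fall could be called for it.

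Most other chemokine ligands were little detected. Of 28 other ligands listed, 13 had 0 counts in all 6 libraries, among them Cxcl2, Ccl12, Ccl20, Ccl22 and Cxcl11. The listed Ccl21a and Ccl27a were also at 0, and both have near-identical copies in the mouse genome that can take or split their reads. Only 7 of the 28 passed the filter in the 5 libraries: 3 fell, 4 were not called and none rose. Over all genes tested, 6.4% were called lower and 4.97% higher. Cxcl9 reached the count level of the filter in siControl alone, so it could be called only as a fall. Its part of the 3 is therefore no support for a direction. Besides Cxcl9, the fallen genes were Cxcl13, a B cell chemoattractant, and Cxcl16, a transmembrane ligand of CXCR6. Cxcl13 had 91, 74 and 80 counts in siControl against 30, 45 and 10 for the libraries labelled siUsf2 1 to 3. Its 5-library log2 fold change was -1.06 (edgeR adjusted p = 0.0156, SE 0.29). The 10 counts were 2.929 CPM, below the siControl range of 4.516 to 6.152 CPM. Its call ended without siControl 1 (edgeR adjusted p = 0.109) and without siUsf2 1 (edgeR adjusted p = 0.267). Cxcl16 had 66, 68 and 55 counts in siControl against 26, 36 and 12 for the libraries labelled siUsf2 1 to 3. The 12 counts were 3.514 CPM, within the siControl range of 3.105 to 4.462 CPM, so the library labelled siUsf2 3 did not show the fall. The 5-library log2 fold change of Cxcl16 was -0.97 (edgeR adjusted p = 0.048, SE 0.32). It passed in 3 of its 13 other settings, with adjusted p from 0.00953 to 0.383, and it was lost without siControl 1, siControl 2, siUsf2 1 or siUsf2 2 (edgeR adjusted p from 0.0513 to 0.383). The most detected of the rest, Ccl25, was at a log2 fold change of 0.41 (edgeR adjusted p = 0.174, SE 0.19).

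Receptors for most of the 10 ligands were near or at 0. Of 24 receptor genes listed, 5 had 0 counts in all libraries, including Cxcr3, the receptor of CXCL10, and 6 were tested. Ccr2, the receptor of CCL2 and CCL7, had 2 counts in siControl 1 and 0 in the other libraries, and Cxcr2 had 1 count, in siControl 3. Cx3cr1, the receptor of CX3CL1, had 3, 0 and 12 counts in siControl against 1, 2 and 0 for the libraries labelled siUsf2 1 to 3. The receptors of CXCL12 were the exception. Cxcr4 had 77.7 CPM on average in siControl and 80.3 CPM in siUsf2 1 and 2 (log2 fold change 0.03, edgeR adjusted p = 0.872, SE 0.10), and 60.6 CPM in the library labelled siUsf2 3. Ackr3, a scavenging receptor of CXCL12, had 90.7 CPM and 95.9 CPM (log2 fold change 0.07, edgeR adjusted p = 0.704, SE 0.09), and 78.5 CPM in that library.

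The receptor gene that was called was Ackr4, a scavenger of CCL19, CCL21 and CCL25. It rose from 27, 24 and 32 counts over the siControl libraries to 58 and 48 for siUsf2 1 and 2, with 5 in the library labelled siUsf2 3 (1.46 CPM, below siControl). Its log2 fold change was 0.99 (edgeR adjusted p = 0.0489, SE 0.33), and it was called in 6 of 13 other settings. The call was lost with DESeq2 (adjusted p = 0.0845), limma-voom (0.0584), no filter (edgeR 0.0591) and without any library other than siControl 3 (edgeR adjusted p from 0.104 to 0.289). Of the 6 tested receptors 1 was called, against 11.4% of all genes tested, and the median of the 6 was 0.10.

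None of 5 tested chemokine-processing enzymes was called, with a median log2 fold change of -0.02. Among them were Adam10 and Adam17, which shed CX3CL1, at 0.18 and 0.00, and the gelatinase gene Mmp2, the most abundant, at -0.03. Mmp14, which activates MMP2, averaged 659.5 CPM in siControl and 609 CPM in siUsf2 1 and 2, at -0.13, and was called with a replicate block (-0.18, edgeR adjusted p = 0.0452). Of 21 NF-kB pathway genes, 2 rose, none fell and 19 were not called, with a median of -0.09. Over all genes tested 11.4% were called, 4.97% higher and 6.4% lower, so the 2 calls are not read as a result about the pathway. Nfkbiz, which encodes a nuclear IkB protein that acts with NF-kB, went from 97.1 to 124 CPM on average (log2 fold change 0.34, edgeR adjusted p = 0.00928, SE 0.09), with 115 CPM in the library labelled siUsf2 3. Ikbkb, the IkB kinase beta gene, was at 0.30 (edgeR adjusted p = 0.0452, SE 0.10) and was called in 6 of 13 other settings. Nfkbiz lost its call without siControl 1 (edgeR adjusted p = 0.056), siUsf2 1 (0.14) and siUsf2 2 (0.0811). Ikbkb lost its call without any library other than siControl 3 (edgeR adjusted p from 0.0891 to 0.366), and with DESeq2 (adjusted p = 0.0529), limma-voom (0.0523) and no filter (edgeR 0.0633). Of 21 inducing cytokine and receptor genes 15 were tested and none was called, with a median of -0.01. The most abundant were the receptor genes Il6st, at 412 and 423 CPM, and Il1r1, at 157.5 and 174 CPM on average (log2 fold changes 0.02 and 0.13). Il1a, a cytokine gene of the list, had 6, 23 and 43 counts in siControl against 42 and 56 for siUsf2 1 and 2 and 5 for the library labelled siUsf2 3. The 5 counts were 1.464 CPM, within the siControl range of 0.4057 to 2.427 CPM. Il1a had the largest fold of the 15 (5-library log2 fold change 1.12, edgeR adjusted p = 0.119, SE 0.45). The cytokine genes Tnf, Il1b, Ifnb1 and Ifng had at most 11 counts in any library. Il6 stood at 17.6 CPM in siControl and 14.9 CPM in siUsf2 1 and 2 (log2 fold change -0.26, edgeR adjusted p = 0.289, SE 0.15).

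**Figure D5:**
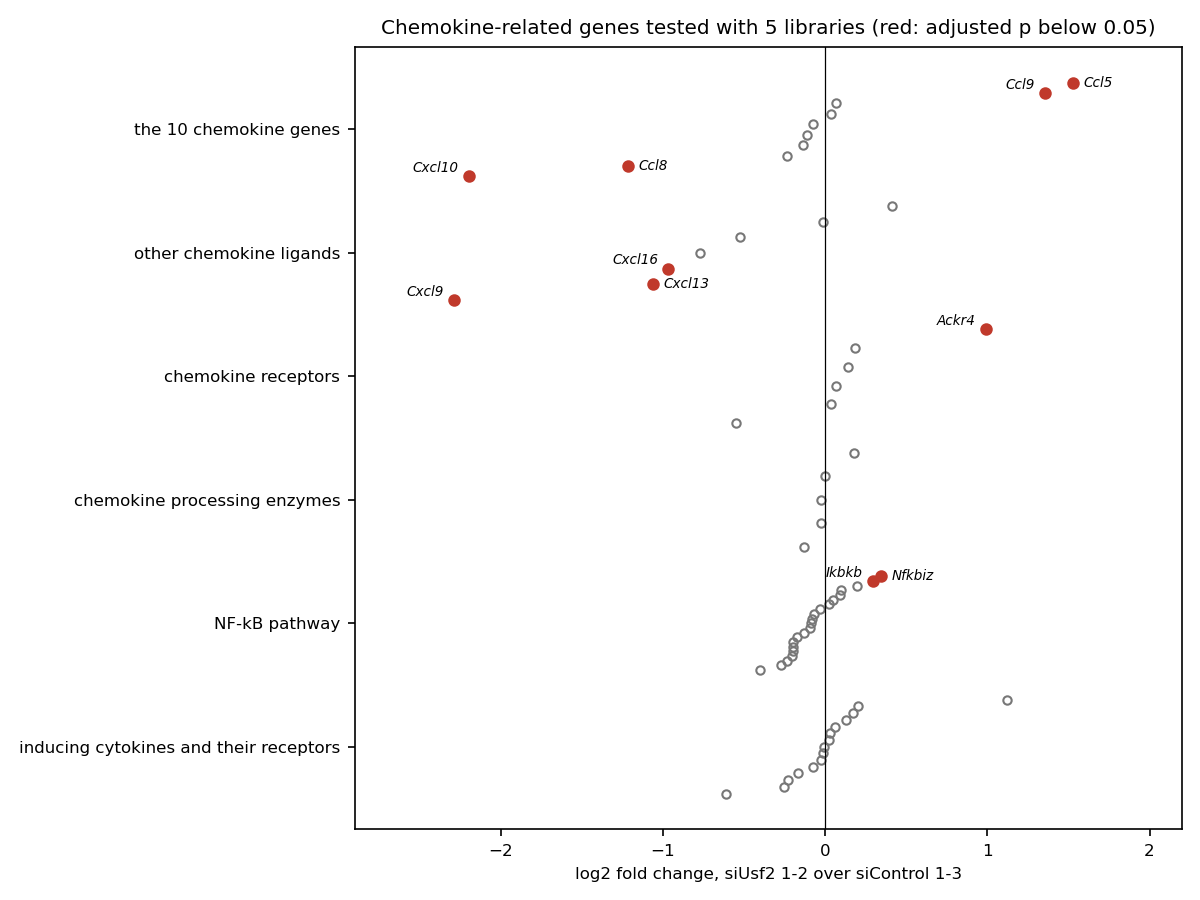
Log2 fold change in the 5 libraries for each tested gene of 6 chemokine-related lists, with 1 circle per gene and red for an edgeR adjusted p below 0.05. The called genes of the 10 lie on both sides of 0, those of the other ligands (Cxcl9, Cxcl13 and Cxcl16) lie below it, and Ackr4, Nfkbiz and Ikbkb lie above it. For Cxcl9, which passed the filter through siControl alone, only a fall could be called.

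The genes whose pattern over the 6 libraries was most like that of Cxcl5, the most abundant of the 10, were Taf5, Cyb5b and Angpt1. Their centred log2 CPM differed from that of Cxcl5 by 0.0454, 0.0457 and 0.0474 (root mean square), the smallest among 9962 genes compared. Cyb5b, for example, stood at 191, 189.6 and 207 CPM in siControl and 198, 173 and 148 CPM in the libraries labelled siUsf2 1 to 3. Taf5 was much lower, at 8.786 to 11.97 CPM, and the ranking took no account of counting error. Whether these genes share regulation with Cxcl5 was not tested.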

How the data were processed

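Whole-number read counts per Ensembl gene, deposited by the authors without normalization, were used for 6 libraries. Per the submitters' processing notes the build was mm10 and the tools were FastQC, Trimmomatic, HISAT2, featureCounts and DESeq2; the sources used here do not give versions, strand setting or annotation. Another deposited table, of rescaled counts, was left out. Symbols, positions and exon lengths came from GENCODE M21 (GRCm38), which matched 52133 of 55414 identifiers.

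The siUsf2 and siControl libraries were compared with edgeR 4.0.16 in R 4.3.3 (filterByExpr, TMM, robust quasi-likelihood test, two-sided, Benjamini-Hochberg adjustment over all genes tested, called below 0.05), with all 6 libraries and with 5, leaving out the library labelled siUsf2 3. The SE is the log2 fold change divided by the square root of the F statistic, and its 95% interval uses the fit's degrees of freedom. CPM are counts per 1000000 of the library total; Poisson intervals and the limit of 3 counts (0.169 to 0.879 CPM) cover counting error only. Replicate pairs differed by more than counting noise (chi-square per degree of freedom of at least 4.18).

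Alternatives were other normalizations, DESeq2 1.42.0, limma-voom 3.58.1, other filters, a replicate block and leaving out each library. The test was tried on simulated counts with known 1.5-fold, 2-fold and 4-fold changes. With 5 libraries it recovered 55.2%, 92.5% and 95.5% of them, and with 6 libraries 0%, 1.49% and 54.5%. Each simulation used the same spread for all its genes and libraries, so it does not copy a library that stands apart. Named genes are the 10, Usf2, up to 4 called genes of each list (the 2 most abundant if none) and the 3 genes most like Cxcl5; receptors and ligands at or near 0, and others named beside a result, were chosen after their values were seen. The 10 genes and all lists were chosen with earlier results of these data known.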

Additional observations from a re-analysis of the deposited data

How the results depend on the processing

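In the 5 libraries, Ccl5, Ccl9 and Cxcl10 kept their direction and call under all 13 alternatives, and the number of the 10 genes called ranged from 3 to 5. With all 6 libraries the count of 0 became 3 with DESeq2 (296 higher and 410 lower genes over the whole table), 2 with limma-voom (19 and 85) and 1 without a filter (12 and 104), and it ranged from 0 to 4 when each library was left out, the 4 being without the library labelled siUsf2 3. The count of other ligands called, 3 in the 5 libraries, became 1 with DESeq2, with limma-voom and with a filter of 1 CPM in 3 libraries, and ranged from 0 to 3 when each library was left out. The receptor count of 1 became 0 with DESeq2, with limma-voom and without a filter, and ranged from 0 to 1 when each library was left out. The cause of these shifts was not tested.

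Signs turned for genes near 0 that were not called in those fits: Mmp2 to 0.011 with upper-quartile normalization (edgeR adjusted p = 0.956), and 4 genes in the 5 libraries when each library was left out. Those ranges were -0.071 to 0.132 for Ccl7, -0.01 to 0.136 for Cxcl1, -0.078 to 0.14 for Cxcr4 and -0.035 to 0.093 for Il6st. With all 6 libraries Ccl7 ranged from -0.178 to 0.035, the latter without the library labelled siUsf2 3.

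The labels do not say that a replicate number marks a shared source, so the numbers were not taken as pairs. Correlations of same-numbered deviations (-0.074, -0.005 and -0.073 over 6 libraries) do not settle it, because siUsf2 1 and 2 both mirror the library labelled siUsf2 3 there and are opposite by construction in the 5 libraries. With a replicate block, 5 of the 10 genes were called in the 5 libraries (2 higher, 3 lower, with Cxcl12 at edgeR adjusted p = 0.0062). So were 4 other ligands (Ccl25 higher, 3 lower) and 1 receptor, among 1719 higher and 2270 lower genes of the whole table. In that fit siControl 3 was alone in its block and added nothing to the comparison of the groups. The fit therefore nearly repeats the one without siControl 3 (Cxcl10 log2 fold change -1.898 and -1.884), and these settings are not separate checks. Leaving out single libraries gave between 349 higher with 519 lower (without siUsf2 1) and 1596 higher with 1964 lower (without siControl 3), against 855 and 1102. With all 6 libraries and the block, 0 of the 10 were called.

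Low counts limit Ccl5, Ccl8, Ccl9 and Cxcl10 in the library labelled siUsf2 3, where 1 count is worth more CPM than elsewhere.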
